A study of Mus musculus with 9 samples.

Results

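The gamma-delta T cell genes described here are 10 rows of the count table, found by their symbols among 52550 genes. They are the receptor genes Trdc, Trdv4, Tcrg-C1, Tcrg-C2 and Tcrg-C4, the CD3 genes Cd3e and Cd3g, and Sox13, Blk and Cd163l1, which mark the interleukin-17 producing gamma-delta lineage. Messenger RNA was sequenced from the ear dermis of C57BL/6 mice (C57BL/6J in the methods) aged 8 weeks, in 9 libraries of which each group held 3. VAS+H2O mice had vaseline on the ear for 5 days, IMQ+H2O mice had imiquimod cream, and both were gavaged with water for 10 days. IMQ+XYF mice had imiquimod cream and were gavaged for 10 days with XYF (Xiao-Yin-Fang), a decoction of Chinese herbs, at 23.3 mg/g and 200 µl. According to the methods, all were male and RNA came from the ear sheets of a pair of mice, so a library may hold pooled animals. The libraries of a group are described as separate samples, without saying which mice made up each of them, and p-values measure the spread between these libraries, which may be technical in part.

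Gamma-delta T cells carry a receptor built from a delta chain and a gamma chain, each of which joins a variable segment to a constant segment, and the receptor reaches the surface with the CD3 chains. Mouse skin holds populations of them that differ in place and receptor. Dendritic epidermal T cells sit in the epidermis and use the gamma variable segment Tcrg-V5 with the delta segment Trdv4. Dermal cells use mainly Tcrg-V4 or Tcrg-V6, and many of them are set in fetal life to make interleukin-17 under transcription factors such as Sox13. These dermal cells are known as an early source of interleukin-17 in imiquimod dermatitis.

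The gamma constant genes are near copies of each other, which bears on how their reads were counted. The first exon of each, on GRCm38, encodes the start of the constant domain, and its first 120 bases are shown 5′ to 3′ with capitals where a base differs from Tcrg-C1. They lie at chr13:19214103-19214222 on the plus strand for Tcrg-C1, chr13:19307432-19307551 on the minus strand for Tcrg-C2 and chr13:19344558-19344677 on the plus strand for Tcrg-C4.
Tcrg-C1: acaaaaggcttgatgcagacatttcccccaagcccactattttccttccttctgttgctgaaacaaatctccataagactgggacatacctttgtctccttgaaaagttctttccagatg
Tcrg-C2: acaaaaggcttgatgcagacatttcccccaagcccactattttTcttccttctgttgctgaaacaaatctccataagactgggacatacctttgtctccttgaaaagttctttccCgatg
Tcrg-C4: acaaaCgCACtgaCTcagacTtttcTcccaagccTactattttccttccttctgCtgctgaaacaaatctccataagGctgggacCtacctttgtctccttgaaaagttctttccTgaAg
Over the whole exon of 330 bases, Tcrg-C2 differed from Tcrg-C1 at 9 positions (97.3% identity) and Tcrg-C4 at 59 (82.1% identity). Of the 50-base words of its transcripts, Tcrg-C1 shared 34.2% exactly with Tcrg-C2 or Tcrg-C3, and Tcrg-C2 shared 25.4% with Tcrg-C1 or Tcrg-C3. Tcrg-C4 shared none with any other gene. How reads that fit more than 1 gene were counted is not given in the sources used here, so the division of counts between Tcrg-C1 and Tcrg-C2 is uncertain.

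The members lie on 5 chromosomes, the gamma genes on 13 (Tcrg-C1 chr13:19214103-19217024, Tcrg-C2 chr13:19304649-19307551, Tcrg-C4 chr13:19344558-19352756) and the delta genes and Blk (chr14:63372836-63417037, minus strand) on 14. Trdc spans chr14:54142851-54148868 on the plus strand and has 4 merged exons of 3865 bases in all. Trdv4 spans chr14:54074905-54075515 on the same strand. Exons of Trdc overlap Trdv5 on the opposite strand by 207 bases and the antisense gene Gm43434 by 96 bases. The named library kit does not mark strand, the labels call the libraries strand-specific and the counting is not described, so reads of these neighbours may not have been told apart. Their own counts were at most 19 for Trdv5 and 18 for Gm43434 in any library, against 79 to 1368 for Trdc. A stretch between bases 2509 and 2654 of the Trdc transcript holds 66 words of 50 bases that occur exactly in 944 distant genes. None of its 100-base words occurred in a distant gene. Cd3e (chr9:44998740-45009627) and Cd3g (chr9:44969572-44980431) are neighbours on the minus strand, Sox13 is at chr1:133382303-133424377 on the minus strand and Cd163l1 at chr7:140218267-140231145 on the plus strand.

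Levels are given as TMM-scaled CPM (counts scaled to library size), and counts are added for the rare genes. A library held between 28756305 counts (IMQ+H2O replicate 1) and 79836881 counts (IMQ+XYF replicate 1), and raw counts are not scaled for this depth. The floor of 3 counts, below which a gene at 0 lies, was therefore between 0.0373 and 0.103 CPM. It covers counting error only. The tissue label is dermis, but the keratinocyte gene Krt14 stood at 724 to 3367 CPM, and the summed level of 12 epidermis genes ran from 2981 to 18616 CPM. IMQ+XYF replicate 1 had the highest epidermis sum, 18616 CPM, where the other 8 libraries reached at most 8824 CPM. It also had the highest Tcrg-C1, Tcrg-C2, Trdv4, Cd3e and Cd3g of all libraries. Results for those genes are therefore given with and without it. The epidermis sum also differed by group, at 5207 to 8824 CPM in VAS+H2O and 2981 to 4515 CPM in IMQ+H2O. In IMQ+XYF it was 4995 to 18616 CPM, and leaving out replicate 1 does not remove this difference from IMQ+H2O. Summed over 15 cartilage genes, IMQ+H2O had 440 to 685 CPM and no other library was below 846 CPM. For 10 muscle genes, IMQ+H2O had 1307 to 2818 CPM, against 125 to 863 CPM in IMQ+XYF. The part of these tissues in the member values was not tested.

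**Figure D1:**
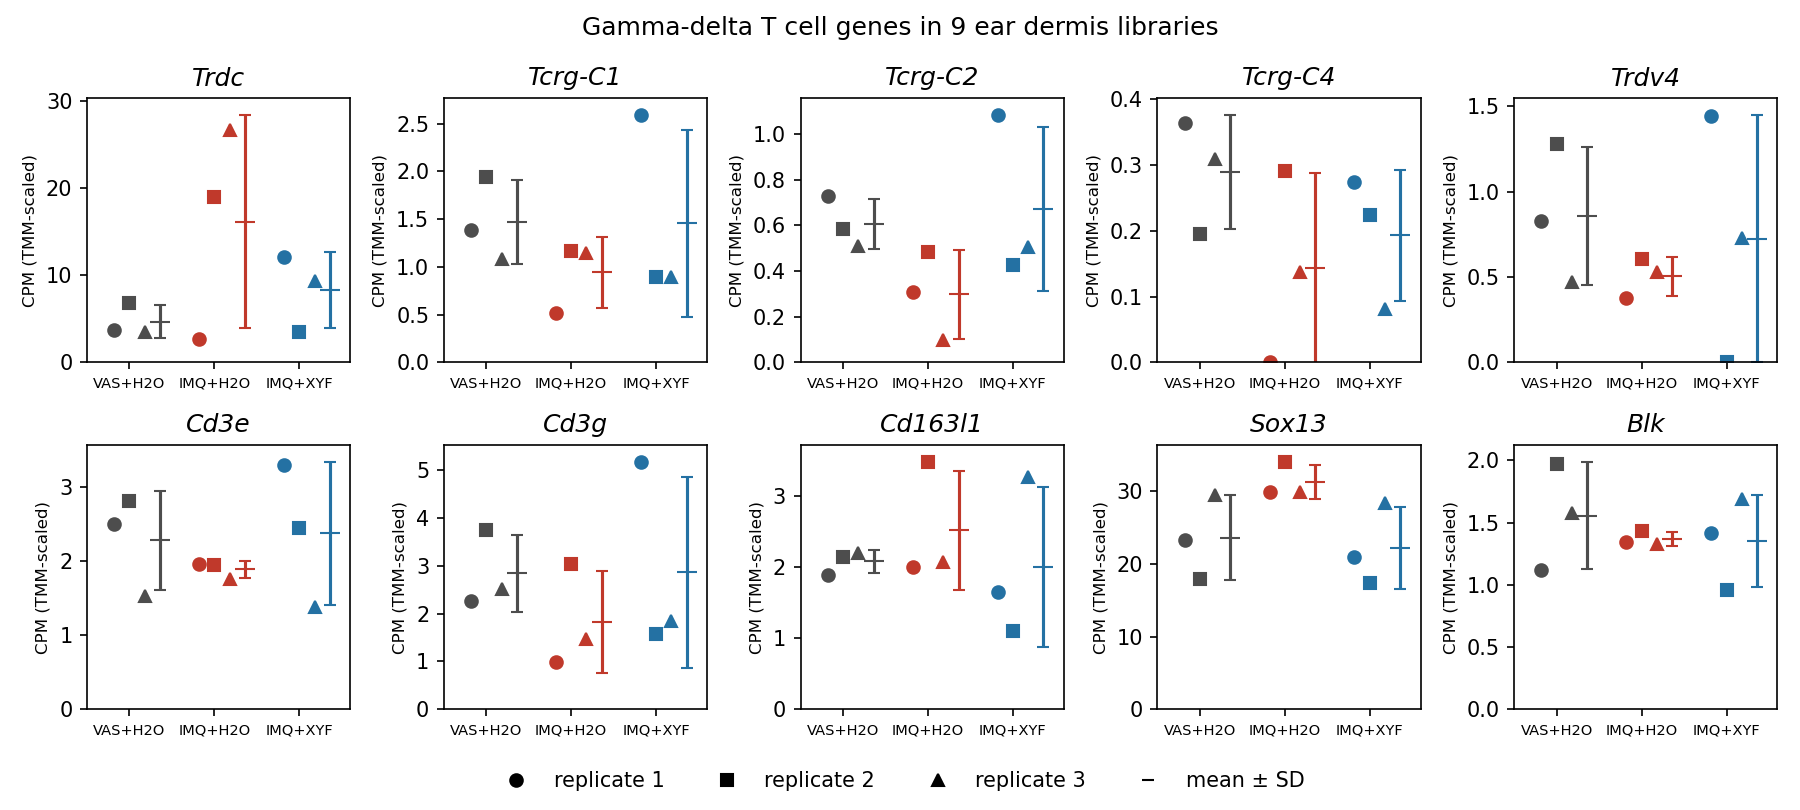
Level of each gamma-delta T cell gene (vertical axis, TMM-scaled CPM, starting at 0) in the 3 libraries of each group (symbols, by replicate number), with the mean and SD of the group beside them. Lower error bars are cut at 0. Trdc reaches 19.0 and 26.7 CPM in 2 of the IMQ+H2O libraries, while the groups of the other receptor and CD3 genes overlap except for Tcrg-C2, which is lower in IMQ+H2O than in VAS+H2O.

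Across genes, a level is comparable only per length. Per kilobase of exon, Sox13 was the highest member in every library, at 4.01 to 7.88 CPM per kb, and this transcription factor is also made by cells other than T cells. In VAS+H2O, Trdv4 (1.93 ± 0.914 CPM per kb, SD, n = 3), Tcrg-C1 (1.59 ± 0.473) and Trdc (1.21 ± 0.483) followed, and their ranges overlapped. Cd3g (0.869 ± 0.244), Tcrg-C2 (0.664 ± 0.122), Blk (0.577 ± 0.159), Cd3e (0.558 ± 0.164) and Cd163l1 (0.539 ± 0.0421) came next, each overlapping its neighbour in this order. Tcrg-C4 was the lowest, at 0.293 ± 0.0876 CPM per kb. In IMQ+H2O, Trdc took the place after Sox13, at 4.17 ± 3.16 CPM per kb, though it was at 0.704 in replicate 1. In IMQ+XYF, Trdc (2.15 ± 1.14 CPM per kb), Trdv4 (1.63 ± 1.63) and Tcrg-C1 (1.58 ± 1.06) followed Sox13 with ranges that overlapped.

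Setting IMQ+H2O against VAS+H2O asks what imiquimod changed. Of the 10 members, 0 were called by edgeR's quasi-likelihood test at an adjusted p of 0.05 and a log2 fold change of 1 in size, against 0.994% of the 22430 genes tested. DESeq2 also called 0, against 948 of all genes. An unadjusted p under 0.05 was reached by 1 of 10, Trdc, with either tool, where edgeR gave that for 20.9% of all genes. The log2 fold changes of the members had a median of -0.44, with 3 of 10 above 0, against a median of -0.023 over all genes.

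Trdc, the constant region of the delta chain, was the member with the largest log2 fold change. It stood at 3.74, 6.84 and 3.48 CPM in VAS+H2O and at 2.72, 19.0 and 26.7 CPM in IMQ+H2O, from 154, 246 and 260 counts and 79, 782 and 1368 counts. Replicates 2 and 3 of IMQ+H2O were far above the control libraries and replicate 1 was below all of them. The log2 fold change was 1.79 (SE 0.743, 95% interval 0.104 to 3.48), with an unadjusted p of 0.0398 and an adjusted p of 0.217 in edgeR. The adjusted p ran from 0.0770 with DESeq2 to 0.484 without IMQ+H2O replicate 3, over 14 alternatives. In bulk tissue, a change in the number of cells of a type and a change in RNA per cell cannot be told apart.

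The gamma chain constant genes gave point estimates of the other sign. Tcrg-C1, joined to the Tcrg-V4, Tcrg-V5 and Tcrg-V6 segments, had 57, 70 and 81 counts in VAS+H2O (1.38, 1.95 and 1.09 CPM) and 15, 48 and 59 counts in IMQ+H2O (0.517, 1.16 and 1.15 CPM). These ranges overlapped, with IMQ+H2O replicate 1 the lowest, and the log2 fold change was -0.62 (SE 0.508), adjusted p 0.518 in edgeR. Tcrg-C2 had 30, 21 and 38 counts (0.728, 0.584 and 0.509 CPM) in VAS+H2O and 9, 20 and 5 counts (0.310, 0.485 and 0.0975 CPM) in IMQ+H2O. Every IMQ+H2O library was below every control library for Tcrg-C2, and the log2 fold change was -1.04 (SE 0.592, 95% interval -2.38 to 0.307), adjusted p 0.347 in edgeR. Without IMQ+H2O replicate 3 it was -0.57, and without IMQ+H2O replicate 2 it was -1.64. Tcrg-C4 had low counts, 15, 7 and 23 in VAS+H2O and 0, 12 and 7 in IMQ+H2O, and a log2 fold change of -0.96 (SE 0.860). Leaving out 1 library took it from -1.88 (without IMQ+H2O replicate 2) to -0.45 (without IMQ+H2O replicate 1), and that of Tcrg-C1 from -0.80 to -0.34.

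The variable segment Trdv4 had 34, 46 and 35 counts in VAS+H2O (0.825, 1.28 and 0.469 CPM) and 11, 25 and 27 counts in IMQ+H2O (0.379, 0.607 and 0.527 CPM). The groups overlapped, and the log2 fold change was -0.74 (SE 1.02), adjusted p 0.716 in edgeR, with -0.34 without VAS+H2O replicate 2 and -1.05 without VAS+H2O replicate 3. 

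The CD3 chains carry the signal of any T cell receptor. Cd3e stood at 2.50, 2.81 and 1.53 CPM in VAS+H2O and at 1.96, 1.94 and 1.76 CPM in IMQ+H2O. Cd3g stood at 2.26, 3.75 and 2.52 CPM in VAS+H2O and at 0.999, 3.03 and 1.46 CPM in IMQ+H2O. Both overlapped between groups, with log2 fold changes of -0.27 (SE 0.348) and -0.62 (SE 0.544). Leaving out 1 library gave -0.49 to -0.092 for Cd3e and -1.19 to -0.34 for Cd3g.

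Among the genes of the interleukin-17 lineage, Sox13 was the only member besides Tcrg-C2 whose groups did not overlap. It stood at 23.3, 17.9 and 29.5 CPM in VAS+H2O and at 29.9, 34.0 and 29.9 CPM in IMQ+H2O, so that the highest control library was just under the lowest imiquimod library. The log2 fold change was 0.40 (SE 0.220), adjusted p 0.323 in edgeR. Summed over 10 endothelial and mural genes, VAS+H2O had 1329 to 1924 CPM and IMQ+H2O 1995 to 2136 CPM. IMQ+XYF had 1130 to 1958 CPM, so that IMQ+H2O was the highest of the groups, without overlap. The part of such cells in the Sox13 counts was not tested. Groups that do not overlap, in either direction, were found for 2 of 10 members and for 31.5% of all genes. Cd163l1, a scavenger receptor of the cysteine-rich family, stood at 1.89, 2.14 and 2.20 CPM and at 2.0, 3.47 and 2.07 CPM, with a log2 fold change of 0.28 (SE 0.399) that was -0.034 without IMQ+H2O replicate 2. Blk, a Src-family kinase of B cells and of these T cells, stood at 1.12, 1.97 and 1.58 CPM and at 1.34, 1.43 and 1.33 CPM. Its log2 fold change was -0.19 (SE 0.295), and 0.0099 without VAS+H2O replicate 2.

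**Figure D2:**
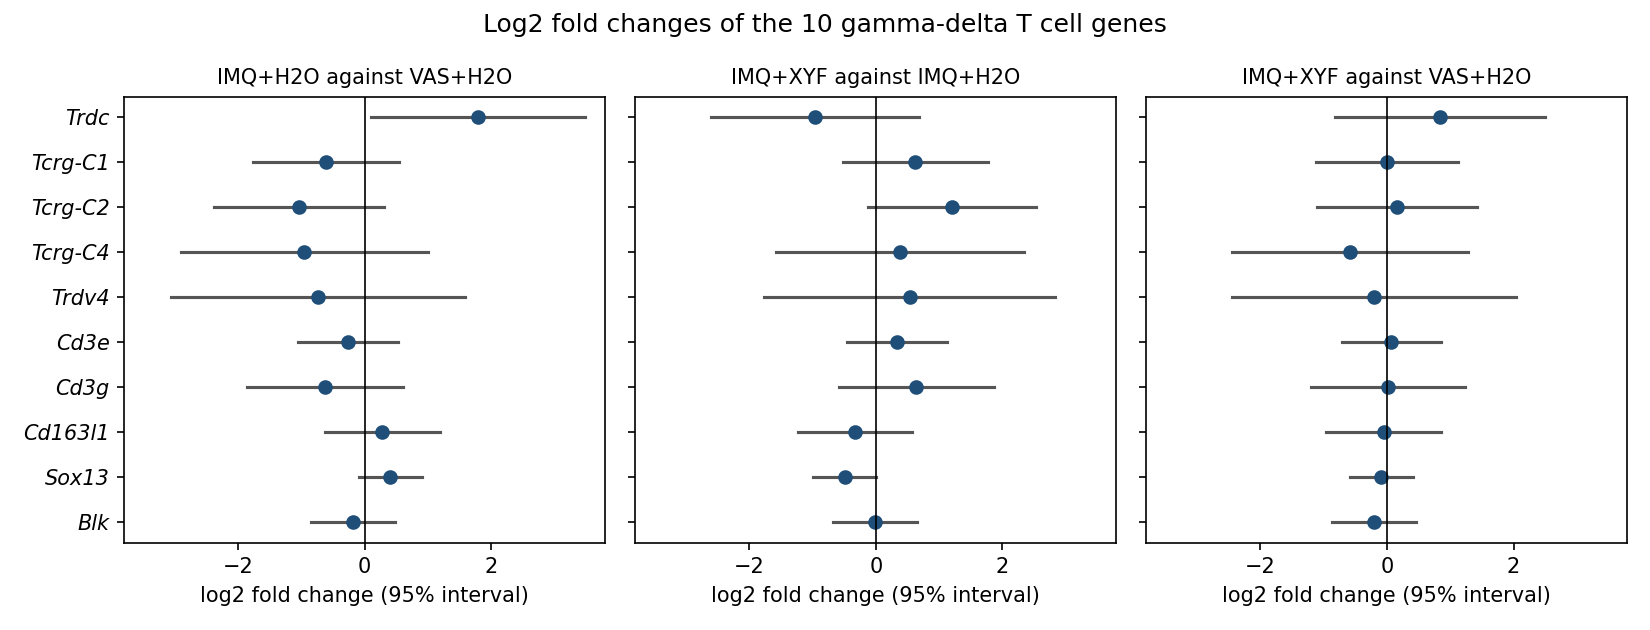
Log2 fold change (point) and 95% interval (line) of each gamma-delta T cell gene from edgeR in the 3 comparisons of groups, 3 libraries each. The interval of Trdc in IMQ+H2O against VAS+H2O, 0.104 to 3.48, is the one that leaves out 0, and no member passed after adjustment over all genes.

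Setting IMQ+XYF against IMQ+H2O asks what XYF changed in imiquimod-treated skin. It uses the same IMQ+H2O libraries as the comparison above, so a high or low IMQ+H2O library moves both in opposite directions. By edgeR's quasi-likelihood test, 0 of 10 members were called, against 0.00892% of all genes (2 of 22430), and DESeq2 called 0. At an unadjusted p under 0.05 there were 0 members by edgeR, against 11.7% of all genes, and 1, Sox13, by DESeq2. The members had a median log2 fold change of 0.36, with 6 of 10 above 0, against 0.0055 over all genes. Without IMQ+XYF replicate 1, the epidermis-rich library, the log2 fold changes of Tcrg-C1, Cd3g and Trdv4 went from above 0 to below it.

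Trdc stood at 12.1, 3.48 and 9.37 CPM in IMQ+XYF (971, 171 and 577 counts), within the range of the IMQ+H2O libraries. The log2 fold change was -0.96 (SE 0.723, 95% interval -2.60 to 0.684), adjusted p 0.608 in edgeR. It was -0.36 without IMQ+H2O replicate 3, -1.45 without IMQ+H2O replicate 1 and -0.57 without IMQ+XYF replicate 2. A fall of Trdc under XYF was not shown beyond the spread of these libraries, and the interval covers both a large fall and a small rise.

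Tcrg-C1 had 208, 44 and 55 counts in IMQ+XYF (2.59, 0.895 and 0.893 CPM), of which only replicate 1 exceeded the IMQ+H2O libraries. Its log2 fold change was 0.62 (SE 0.504), adjusted p 0.637 in edgeR, and -0.092 without IMQ+XYF replicate 1. Tcrg-C2 had 87, 21 and 31 counts (1.08, 0.427 and 0.503 CPM), again highest in replicate 1, and overlapped with IMQ+H2O through replicate 2. Its log2 fold change of 1.20 (SE 0.585), adjusted p 0.456 in edgeR, was 0.66 without IMQ+XYF replicate 1, 0.77 without IMQ+H2O replicate 3 and 1.81 without IMQ+H2O replicate 2. Tcrg-C4 had 22, 11 and 5 counts, a log2 fold change of 0.38 (SE 0.862), and -0.12 without IMQ+H2O replicate 1. Trdv4 had 116, 0 and 45 counts (1.44, 0 and 0.731 CPM), so that its highest and its lowest library of all 9 were both in IMQ+XYF. The log2 fold change of Trdv4 was 0.54 (SE 1.01), adjusted p 0.856 in edgeR, with -0.44 without IMQ+XYF replicate 1 and 1.13 without IMQ+XYF replicate 2.

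Cd3e stood at 3.30, 2.44 and 1.38 CPM in IMQ+XYF and Cd3g at 5.16, 1.57 and 1.85 CPM. Both were highest in replicate 1 and overlapped with IMQ+H2O. The log2 fold change was 0.33 (SE 0.346) for Cd3e, and 0.018 for it without IMQ+XYF replicate 1. For Cd3g it was 0.64 (SE 0.542), and -0.10 without IMQ+XYF replicate 1. The part of epidermal tissue in these values was not tested.

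Sox13 had the lowest unadjusted p of the members under XYF, with a log2 fold change under the limit of 1 in size. It stood at 21.0, 17.3 and 28.4 CPM in IMQ+XYF, below the 29.9 to 34.0 CPM of IMQ+H2O in every library. Its log2 fold change was -0.49 (SE 0.220, 95% interval -0.989 to 0.00762), with an unadjusted p of 0.0529 and an adjusted p of 0.428 in edgeR. It was -0.31 without IMQ+XYF replicate 2. Groups that did not overlap were found for 1 of 10 members, Sox13, and for 18% of all genes. Cd163l1 stood at 1.64, 1.10 and 3.26 CPM, with a log2 fold change of -0.33 (SE 0.398), which was -0.87 without IMQ+XYF replicate 3 and -0.011 without IMQ+XYF replicate 2. Blk stood at 1.42, 0.956 and 1.69 CPM, around the level of IMQ+H2O, with a log2 fold change of -0.011 (SE 0.294).

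The last comparison, IMQ+XYF against VAS+H2O, sets treated against control skin. No member was called by edgeR or DESeq2 (0 of 10), against 1.2% of all genes by edgeR, and 0 had an unadjusted p under 0.05 with either tool, against 18.3%. The groups overlapped for all 10 members, where 22.1% of all genes did not overlap. Trdc again had the largest log2 fold change, 0.83 (SE 0.729), adjusted p 0.612 in edgeR, and it was 0.46 without IMQ+XYF replicate 1 and 1.25 without IMQ+XYF replicate 2. The other members were between -0.58 (Tcrg-C4) and 0.16 (Tcrg-C2), and leaving out single libraries changed the sign for 8 of them. Without IMQ+XYF replicate 1, the log2 fold change was -0.71 for Tcrg-C1, -0.73 for Cd3g, -0.37 for Tcrg-C2, -0.25 for Cd3e and -1.18 for Trdv4, which was -0.20 with it.

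A gamma-delta receptor needs a chain of each kind, and the ratio of delta to gamma constant counts was computed in each library as a description, with no test. Counts of genes of unequal length were set against each other, so ratios and shares are read between libraries only. Trdc had 1.51, 2.51 and 1.83 counts for each count of Tcrg-C1, Tcrg-C2 and Tcrg-C4 together in VAS+H2O. In IMQ+H2O it had 3.29, 9.78 and 19.3. In IMQ+XYF it had 3.06, 2.25 and 6.34. All 3 IMQ+H2O libraries were above all 3 control libraries, and the ratio was not of one size in the series. Set against Cd3g, Trdc had 1.38 to 1.82 counts for each Cd3g count in VAS+H2O, 2.72, 6.26 and 18.2 in IMQ+H2O and 2.34, 2.22 and 5.06 in IMQ+XYF.

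As a share of the receptor constant counts (Trdc of Trdc, Trac, Trbc1 and Trbc2), Trdc took 46.1%, 51.1% and 46.8% in VAS+H2O. In IMQ+H2O it took 40.7% (exact binomial 95% interval 33.7 to 48.0, of 194 counts), 76.2% (73.5 to 78.8, of 1026) and 89.2% (87.5 to 90.7, of 1534). In IMQ+XYF it took 61.1%, 56.6% and 63.4%. Group means were 48.0% ± 2.74, 68.7% ± 25.1 and 60.4% ± 3.45 (SD, n = 3). With Trac as the only other gene the means were 84.2%, 89.4% and 92.3%, which puts IMQ+XYF above IMQ+H2O. The IMQ+XYF libraries were all above the control libraries, and the IMQ+H2O libraries spread to both sides of them. The gamma genes told another order. Their share of gamma and beta constant counts was 41.5%, 33.8% and 35.8% in VAS+H2O, 20.2%, 32.4% and 35.1% in IMQ+H2O and 36.6%, 40% and 24.1% in IMQ+XYF, with groups that overlapped. The interval of the lowest, IMQ+H2O replicate 1, was 13.4 to 28.5%, from 24 gamma counts. All these binomial intervals cover counting error only, and not the spread between libraries.

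**Figure D3:**
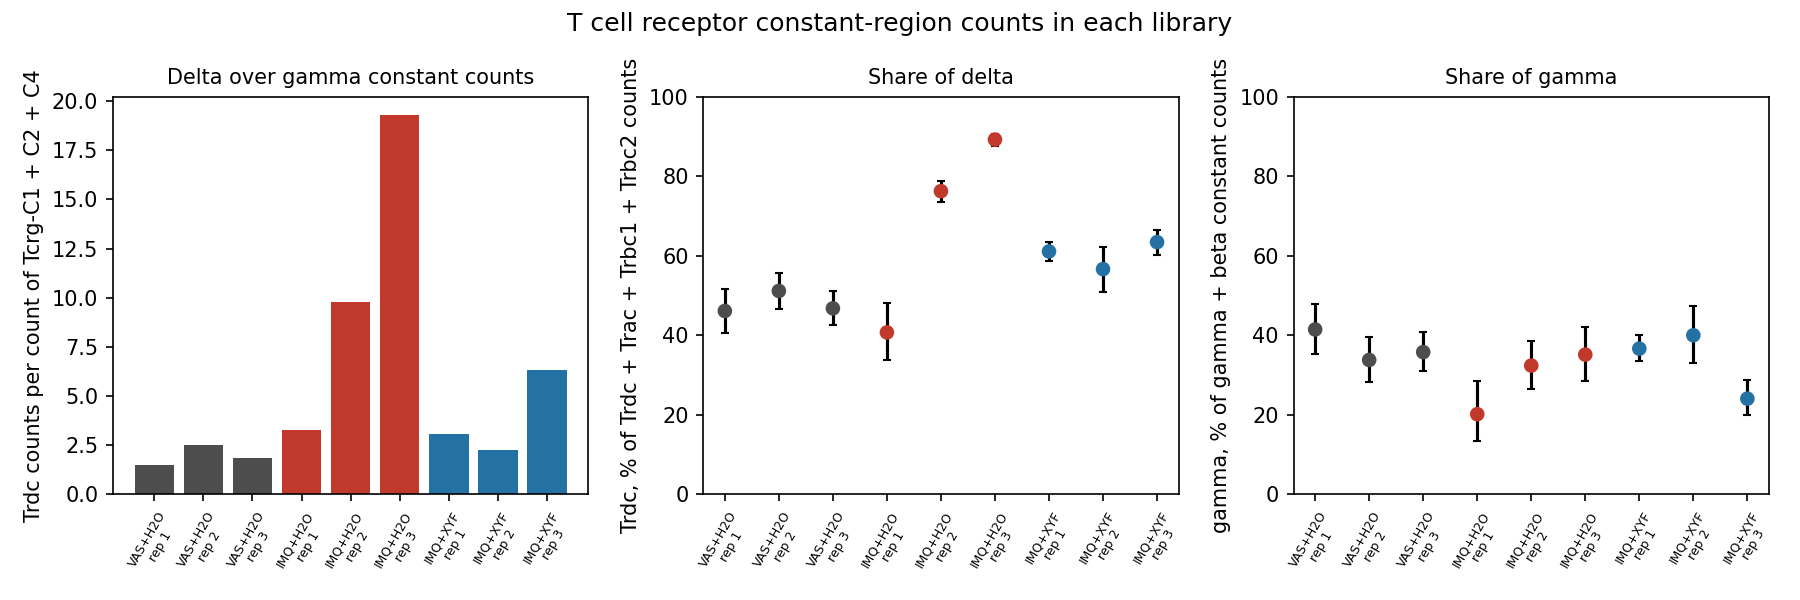
Receptor constant-region counts in each library (horizontal axis, 3 per group), as Trdc counts per gamma constant count (left), Trdc as a percentage of delta, alpha and beta constant counts (middle) and gamma as a percentage of gamma and beta constant counts (right), with exact binomial 95% intervals in the middle and right panels. The intervals cover counting error only. Trdc stands out in IMQ+H2O replicates 2 and 3 (9.78 and 19.3 per gamma count), and the gamma share does not, at 32.4% and 35.1%.

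Genes of other leukocytes were summed beside Trdc. Summed over 10 neutrophil genes, IMQ+H2O had 388, 517 and 929 CPM, in the same order as its Trdc, against 128 to 161 CPM in VAS+H2O. IMQ+XYF had 499, 240 and 677 CPM, which is not the order of its Trdc, and IMQ+H2O replicate 1, with the lowest Trdc of all 9 libraries, was above every control library at 388 CPM. The 8 pan-leukocyte genes summed to 331, 565 and 547 CPM in IMQ+H2O and to 242 to 314 CPM in VAS+H2O, with replicate 2 of IMQ+H2O above replicate 3. By the deviation of log2 CPM from the group means over the 9 libraries, the genes most like Trdc among 14507 were Rgs14 (r = 0.99), Arhgdib (0.98), Adora2b (0.98), Coro1a (0.97) and Dok3 (0.97). Arhgdib and Coro1a are on the pan-leukocyte list. These are the highest of 14507 values over 9 libraries, and the other members tried also had their closest genes at 0.95 or higher. The points share a library and its depth, and no p is given. The part of other leukocytes in the Trdc counts was not tested.

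Among the members themselves, the same deviations correlated at 0.89 between Tcrg-C1 and Cd3g, 0.78 between Trdc and Tcrg-C1 and 0.05 between Trdc and Cd3e. Sox13 gave -0.78 with Cd3e and 0.11 with Trdc. The genes most like Cd3e were Ang, Nfyb, Nebl, Zfp266 and Cbx2 (r from 0.95 to 0.98), and those most like Sox13 were Pola2, Pkn3, Laptm4a, Adcy4 and Ccdc163 (0.97 to 0.98). Nnat, Tfpi2, A4galt, Zdhhc6 and Tespa1 came closest to Cd163l1 (0.97 to 0.98), and Tm4sf1, Ubald2, Vcan, Angptl4 and Tifa to Blk (0.98 to 0.99).

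The remaining receptor segments had few counts. Of 20 further rows of gamma or delta segments, 8 had no count in any library, 5 had 1 to 9 in total and 7 had at least 10. Tcrg-V5, the segment of dendritic epidermal T cells, had 17, 20 and 30 counts in VAS+H2O, 6, 5 and 5 in IMQ+H2O and 65, 4 and 9 in IMQ+XYF. It was highest in IMQ+XYF replicate 1, the library richest in epidermis genes, and its log2 fold change by imiquimod was -1.71 (SE 0.835), adjusted p 0.279 in edgeR. Tcrg-V4 had 10, 13 and 10 counts, 10, 7 and 6 counts, and 24, 0 and 0 counts in the 3 groups. Tcrg-V6, the dermal segment of fetal origin, had at most 7 counts in any library and 21 in all. Trgv2 had 51 counts in all, Trdv2-2 had 8 in IMQ+H2O replicate 1 and 24 in IMQ+XYF replicate 1 and none elsewhere, Trdj1 had 19 in all and Trdv5, which overlaps Trdc, had 86. Tcrg-V4 was thus above the floor of 3 counts in all VAS+H2O and IMQ+H2O libraries and in 1 of 3 IMQ+XYF libraries. For Tcrg-V5 every IMQ+H2O library was below every VAS+H2O library, without a call, where 31.5% of all genes had groups that did not overlap. The counts of the other segments were too few to set the groups apart.

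The alpha-beta receptor genes gave no call beside the gamma-delta genes. Trac stood at 0.346 to 1.87 CPM, Trbc1 at 1.17 to 2.72 CPM and Trbc2 at 1.12 to 5.28 CPM over the 9 libraries, and Trbc2 was highest in IMQ+XYF replicate 1. Cd8a had at most 25 counts in a library. Cd4, the coreceptor of helper T cells that macrophages and dendritic cells also carry, stood at 7.62, 13.3 and 6.97 CPM in VAS+H2O, 4.27, 7.06 and 3.24 CPM in IMQ+H2O and 2.24, 3.17 and 2.91 CPM in IMQ+XYF. It fell by 1.74 on the log2 scale from VAS+H2O to IMQ+XYF (SE 0.353), adjusted p 0.0475 in edgeR. Cd4 was the 1 gene called of 11 tested on the alpha-beta T cell list, against 1.2% of all genes. DESeq2 also called it, and leaving out single libraries was not examined for it. Ncr1, a defining gene of natural killer cells, was at or near 0, with at most 11 counts in any library.

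In the list of CD3 and T cell receptor signalling genes, 19 of 22 were tested, among them Cd3e and Cd3g. By imiquimod 1 rose and 0 fell, where 0.994% of all genes were called. The gene that rose was Lcp2, the adaptor SLP-76 that myeloid cells also use, with a log2 fold change of 1.47 (SE 0.280), adjusted p 0.0453 in edgeR. Cd247, the CD3 zeta chain, stood at 4.29, 5.22 and 4.90 CPM in VAS+H2O and 2.14, 3.76 and 2.48 CPM in IMQ+H2O. The IMQ+H2O libraries were all lower, with a log2 fold change of -0.78 (SE 0.249) and an adjusted p of 0.135. By XYF 0 of 19 were called by edgeR, and DESeq2 called 0. Of the 19, 3 had an unadjusted p under 0.05 in edgeR, all with negative fold changes, against 11.7% of all genes. From VAS+H2O to IMQ+XYF, Cd27, a costimulatory receptor of T cells, fell by 1.52 (SE 0.265), adjusted p 0.0358 in edgeR, and edgeR called no other gene of the list, while DESeq2 called Cd27 lower and Lcp2 higher. In that comparison edgeR called 1.2% of all genes, and DESeq2 called 712 of the 22430. Medians of the list were -0.27, -0.16 and -0.44 in the 3 comparisons, against -0.023, 0.0055 and -0.024 over all genes.

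The interleukin-17 programme list held 26 genes, all tested, with Sox13, Blk and Cd163l1 among them. By edgeR 0 were called in each of the 3 comparisons, against 0.994%, 0.00892% and 1.2% of all genes. In edgeR, 5, 5 and 6 of the 26 had an unadjusted p under 0.05, against 20.9%, 11.7% and 18.3% of all genes. DESeq2 called 1 gene by imiquimod (Il17a), 0 by XYF and 2 for the treated group against the control (Ltb4r1 and Cd44), all higher. Over all 22430 genes, DESeq2 called 948, 210 and 712 in these comparisons. Medians were 0.074, 0.024 and 0.0023, and they were the same with Il17a and Il22 set at the bound that their counts of 0 in VAS+H2O allow. Il17a, the cytokine that names the programme, had 0 counts in every VAS+H2O library, 0, 14 and 5 in IMQ+H2O and 18, 11 and 7 in IMQ+XYF. Most of the IMQ+H2O counts came from replicate 2, and no fold change is given against a group at 0. The adjusted p against VAS+H2O was 0.142 for IMQ+H2O and 0.127 for IMQ+XYF in edgeR. Il22, a cytokine of the same cells, had 0 counts in VAS+H2O, 0, 10 and 11 in IMQ+H2O and 0, 24 and 11 in IMQ+XYF. Between IMQ+XYF and IMQ+H2O, Il17a overlapped, with a log2 fold change of 0.31 (SE 0.997), adjusted p 0.922 in edgeR.

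The other genes of the programme gave no call by edgeR, and most were read at low counts. Il17f had 13, 33 and 45 counts in VAS+H2O, 11, 40 and 48 in IMQ+H2O and 32, 48 and 48 in IMQ+XYF. Il23r, the interleukin-23 receptor, had 17, 14 and 30, then 7, 16 and 11, then 22, 17 and 50 counts. Ccr6, the homing receptor of these cells, had 21, 32 and 18, then 9, 36 and 16, then 42, 20 and 43 counts. None of the 3 was called in any comparison. Their raw counts are not scaled for depth, which was lowest in IMQ+H2O replicate 1 and highest in IMQ+XYF replicate 1. 5830411N06Rik, a scavenger receptor related to Cd163l1, had 96 to 336 counts and a log2 fold change by imiquimod of -0.25 (SE 0.263).

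On the list of epidermal gamma-delta T cell genes, 18 were tested, with Trdv4 among them. In edgeR 3 rose and 0 fell by imiquimod, where 0.994% of all genes were called. Of the 18, 10 had a log2 fold change above 0, and the median was 0.30, against -0.023 over all genes. Fcer1g, a signalling chain of Fc receptors found in many myeloid cells, rose by 1.22 on the log2 scale (SE 0.194), adjusted p 0.0292 in edgeR. Cd244, a receptor of natural killer and myeloid cells, rose by 1.44 (SE 0.273), adjusted p 0.0449, and Ctla2a rose by 1.84 (SE 0.358), adjusted p 0.0495. The receptor segments of this list had log2 fold changes below 0 in the same comparison, -1.71 for Tcrg-V5 and -0.74 for Trdv4. Whether the Trdv4 counts came from epidermal or dermal cells was not tested. DESeq2 called 6 by imiquimod, all higher, and 948 of all 22430 genes. By XYF edgeR called 0 of 18, with 2 at an unadjusted p under 0.05, against 11.7% of all genes. DESeq2 called 1 by XYF, Cd7, where it called 210 of all genes. Cd7 had a log2 fold change of 1.23 (SE 0.251) and an adjusted p of 0.358 in edgeR. From VAS+H2O to IMQ+XYF edgeR called 0 and DESeq2 called 3, all higher, where DESeq2 called 712 of all genes. In edgeR 7 had an unadjusted p under 0.05 there, all higher, against 18.3% of all genes.

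**Figure D4:**
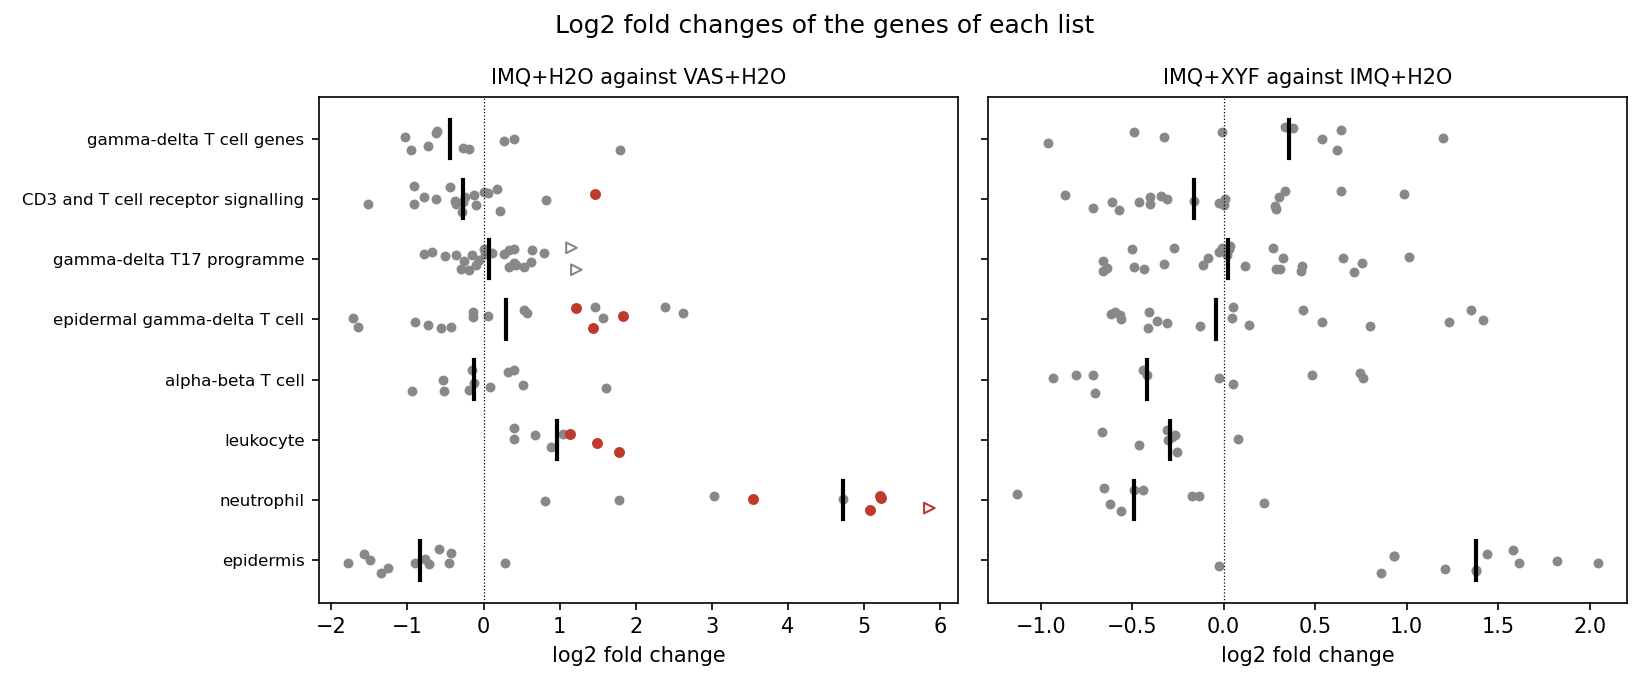
Log2 fold changes of tested genes (points, red where called) by list, for IMQ+H2O against VAS+H2O and IMQ+XYF against IMQ+H2O, with the median of each list as a black bar. Open triangles mark the lower bound of genes with no count in VAS+H2O. The gamma-delta T cell genes have no call in either panel, and the 10 members have medians of -0.44 and 0.36.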

How the data were processed

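Per the labels and the methods, the authors aligned reads with STAR 2.5 to GRCm38 (Ensembl release 90), and deposited whole-number read counts per gene with no normalization. The counting program, its use of strand and its handling of reads with several alignments are not given in the sources used here. The labels also name FastQC, Cuffnorm and DESeq 1.22.1. The methods use DESeq2 with an adjusted p of 0.05 and a log2 fold change of 1.

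From these counts, edgeR 4.0.16 (R 4.3.3) scaled libraries by TMM, filterByExpr kept 22430 of 52550 genes with all 10 members, and 1 quasi-likelihood fit over all 9 libraries gave each comparison, with Benjamini-Hochberg adjustment over all tested genes. Genes were called at those 2 limits. SEs of fold changes were derived from the F statistic. DESeq2 1.42.0, RLE factors, no filter, the 2 groups alone, a replicate block and leaving out each library were alternatives. The scripts were tested on simulated data. Medians of lists include the genes they share with the members.

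Members and gene lists were chosen with earlier results of these data known. Named were all members, called list genes (at most 4 per list and comparison), a fixed set of receptor and lineage genes, segments with at least 10 counts, and the 5 genes most like Trdc, Cd3e, Sox13, Cd163l1 and Blk with a mean of at least 1 CPM. Il22, Ltb4r1, Cd44, Cd7 and Gm43434 were named after their values were seen. Coordinates and sequence are from GENCODE vM21 and its GRCm38 genome. Within groups, counts differed by a chi-square per degree of freedom of 35.7 to 217, so no pair of libraries agreed within sampling noise. No column of the table was left unmapped. Some genes of the fixed set are not reported here.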

Additional observations from a re-analysis of the deposited data

How the results depend on the processing

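No member was called under any alternative, and of 420 alternative values 393 kept the sign of the member's log2 fold change and 27 did not. The number of genes called by imiquimod was 223, with 948 by DESeq2, 86 with the replicate block, 496 from the 2 groups alone and 25 to 455 when 1 library was left out. By XYF it was 2, with 210, 0, 1 and 0 to 4 in the same order. For the treated group against the control it was 270, with 712, 54, 33 and 12 to 592. The causes were not tested. No pairing by replicate number was seen. Deviations of same-numbered libraries correlated between -0.183 and 0.125 in 9 pairs, and 1 pair was over 0.1. Libraries of unlike number reached 0.277, and whether this check could find a pairing was not tested. With the replicate block, Tcrg-C1 was at -0.041 for the treated group against the control, where it was 0.0044 without the block, and no member's call changed. Without the filter, Blk was at 0.016 by XYF. Leaving out 1 library turned these signs. By imiquimod, Blk ranged from -0.38 to 0.0099 and Cd163l1 from -0.034 to 0.42. By XYF, Blk ranged from -0.20 to 0.21, Tcrg-C4 from -0.12 to 1.30, Trdv4 from -0.44 to 1.13, Tcrg-C1 from -0.092 to 0.90 and Cd3g from -0.10 to 1.21. For the treated group against the control, Tcrg-C1 ranged from -0.71 to 0.30, Tcrg-C2 from -0.37 to 0.44, Cd3e from -0.25 to 0.34, Cd3g from -0.73 to 0.36, Trdv4 from -1.18 to 0.41, Cd163l1 from -0.59 to 0.28, Sox13 from -0.30 to 0.11 and Blk from -0.38 to 0.048. Computed from Trdc and Trac alone, the mean delta share was 84.2% in VAS+H2O, 89.4% in IMQ+H2O and 92.3% in IMQ+XYF, so that IMQ+XYF lay above IMQ+H2O, the reverse of the order with all 4 genes (60.4% and 68.7%). Leaving out 1 library gave 46.4 to 49.0% in VAS+H2O, 58.5 to 82.7% in IMQ+H2O and 58.8 to 62.2% in IMQ+XYF for the share of all 4 genes. Depth limits the segments and Tcrg-C4, which had 0 to 23 counts a library.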
